A study of Mus musculus with 8 samples.

Results

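Of 14853 genes in the authors' deposited table, 359 (2.42%) carry a RIKEN clone name that ends in Rik and begins with the prefix of a testis library. The 6 prefixes counted denote full-length cDNA libraries that the RIKEN mouse cDNA project made from testis, and examples with each prefix are 1700013G24Rik, 4921507P07Rik, 4930571K23Rik, 4931409K22Rik, 4932414N04Rik and 4933409G03Rik. Members were taken by a rule on names, with 1 name (4930555G01Rik) left out, whose value is not given here. The rule uses no measured value, but the members were chosen with results of the same comparison known. The file gave the clone name for some members, and for 187 with a blank symbol the name came from the Entrez gene ID. For 38 members RefSeq now lists a gene symbol that is no clone name, such as Llcfc1 for 1700034O15Rik and Dpp3 for 4930533O14Rik. The members comprised 176 protein-coding genes, 165 non-coding RNAs and 18 pseudogenes.

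RIKEN clone names were given to cDNAs that had no known gene at the time, and many that came from adult testis are transcripts of meiotic and post-meiotic germ cells. Spermatogonia, the mitotic cells at the base of the seminiferous tubule, divide, enter meiosis as spermatocytes and become haploid spermatids, which form the sperm. Much of the gene set used by spermatids is silent or weak in spermatogonia, and the role of most clone-named genes in the testis is not known. A clone name records the library a cDNA was found in, not the cells that use the gene, and some members are expressed in many tissues.

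RNA was sequenced from undifferentiated spermatogonia, the germ cell population in which spermatogenic stem cells reside, in 4 samples of Tert CreER/flox mice and 4 samples of Tert CreER/+ mice. All mice were C57BL/6, 8 to 12 weeks old, were injected with tamoxifen and carried a lox-stop-lox tdTomato reporter at Rosa. CreER is a Cre recombinase made active by tamoxifen, here encoded at one Tert allele in both groups, so that the CreER/+ controls keep a single unmodified allele and the CreER/flox mice have a loxP-flanked allele in its place. Cells high for surface MCAM, without KIT and positive for tdTomato were sorted on day 7, so only cells in which Cre had acted on the reporter were kept. Tert encodes the catalytic subunit of telomerase. The labels do not say whether the samples of a group came from separate mice or pools, so p-values measure the spread between these samples only.

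Values per library were not used here, and every gene has a single fold change with its standard error (SE) and a mean normalized count over all 8 libraries. Fold changes are log2 values, the quantity meant wherever a gene is said to stand at a value, and were read as CreER/flox over CreER/+, since the table is named flox against WT, while the labels have no wild-type group. Tert itself could not check that direction, with 0.29 (SE 0.26, adjusted p 0.595), per the authors' deposited table. Reads from any exons that Cre leaves in place could count for it, and the cause of its value was not tested. A gene was called at an adjusted p under 0.05 in the authors' DESeq2 Wald test with Benjamini-Hochberg adjustment over all 14853 genes. Every gene in the table had a mean count above 10 (the smallest was 10.4), and 323 of the 1121 RefSeq genes with such a name were in it, so the members are those with reads in these cells. Mean counts are used only as a measure of depth, since they are not levels per transcript length.

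Promoter sequences of some members are shown first, because the members' promoters differed in composition from those of most genes and from each other. Each window runs from 250 bases before to 50 bases after a RefSeq start in GRCm38.p6, written 5′ to 3′ on the gene's strand. Capitals mark a partial X-box (GTTGCC, or GGCAAC on the other strand) or a GC box (CCGCCC or GGGCGG), common in broadly active promoters. The X-box letters are part of the site bound by RFX factors of ciliary and spermatid genes. Only these exact letters were searched, so a full X-box is not told apart from a partial one, and sites with other letters would be missed. The first window, of 4930571K23Rik (chr7:125368611-125368910, plus strand), held 4 CG dinucleotides and no match to any motif searched. The second, of 1700034J05Rik (chr6:146954372-146954671, minus strand), held 0 CG and a partial X-box. The third, of 1700001L19Rik (chr13:68597189-68597488, plus strand), held 7 CG and a partial X-box in both orientations, 1 base apart. The fourth, of 1700010I14Rik (chr17:8988083-8988382, plus strand), also held 7 CG, with 3 partial X-boxes in a repeat across the start. All 4 genes were lower in CreER/flox cells, as described further on. The fifth window, shown for contrast, is that of 4932438A13Rik (chr3:36862856-36863155, plus strand), the member of largest mean count, which was not called. It held 25 CG and 6 GC boxes. The called 4921507P07Rik, not shown, also held 25 CG, with a GC box. Partial X-boxes were in 6 of 30 called members and 19% of uncalled ones, so the windows shown do not stand for all.
4930571K23Rik: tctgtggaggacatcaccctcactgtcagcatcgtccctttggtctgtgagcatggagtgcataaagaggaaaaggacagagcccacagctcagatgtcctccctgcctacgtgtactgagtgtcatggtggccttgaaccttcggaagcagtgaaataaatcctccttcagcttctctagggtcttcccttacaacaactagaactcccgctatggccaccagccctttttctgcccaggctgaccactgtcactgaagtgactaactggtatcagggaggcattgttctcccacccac
1700034J05Rik: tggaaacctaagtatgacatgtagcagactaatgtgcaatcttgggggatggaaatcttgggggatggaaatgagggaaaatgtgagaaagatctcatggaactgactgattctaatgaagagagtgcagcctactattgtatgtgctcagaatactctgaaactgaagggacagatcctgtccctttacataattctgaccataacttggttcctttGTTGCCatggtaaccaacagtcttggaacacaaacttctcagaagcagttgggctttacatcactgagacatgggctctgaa
1700001L19Rik: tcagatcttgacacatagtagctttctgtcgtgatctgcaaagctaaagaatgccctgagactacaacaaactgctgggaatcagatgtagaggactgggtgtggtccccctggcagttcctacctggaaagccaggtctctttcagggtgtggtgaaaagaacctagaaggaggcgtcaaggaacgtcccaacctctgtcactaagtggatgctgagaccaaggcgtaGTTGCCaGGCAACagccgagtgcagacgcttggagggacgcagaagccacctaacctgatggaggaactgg
1700010I14Rik: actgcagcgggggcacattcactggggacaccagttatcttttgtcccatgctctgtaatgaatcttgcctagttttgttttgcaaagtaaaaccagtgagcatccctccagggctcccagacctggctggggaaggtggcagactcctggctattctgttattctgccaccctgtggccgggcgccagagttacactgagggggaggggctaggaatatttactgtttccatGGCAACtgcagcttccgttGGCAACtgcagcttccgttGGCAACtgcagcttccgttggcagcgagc
4932438A13Rik: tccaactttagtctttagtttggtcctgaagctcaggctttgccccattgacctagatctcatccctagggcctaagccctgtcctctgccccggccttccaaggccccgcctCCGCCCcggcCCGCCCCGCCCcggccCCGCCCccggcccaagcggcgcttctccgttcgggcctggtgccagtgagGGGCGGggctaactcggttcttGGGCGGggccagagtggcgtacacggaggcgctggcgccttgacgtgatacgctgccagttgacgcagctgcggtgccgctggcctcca

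The testis-library RIKEN genes mostly had lower values in CreER/flox than in CreER/+ spermatogonia. In the authors' deposited table, 44 of 359 members (12.3%) fell and 0 rose at an adjusted p under 0.05 of the DESeq2 Wald test. Over all 14853 genes, 3.42% were called lower (508 genes) and 1.94% higher (288 genes). The members thus made up 8.66% of all genes called lower while being 2.42% of the genes tested. At an unadjusted p under 0.05, 108 members (30.1%) lay lower and 1 lay higher, beside 10.5% of all genes lower and 9.15% higher. Fewer cells of a type and less RNA per cell cannot be told apart in such bulk samples.

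The calls depended on the rule, and the members' share stood above that of all genes under each rule that made calls among them. At an adjusted p under 0.01, 11 members (3.06%) fell, beside 1.2% of all genes. With adjustment over genes of mean count at least 50, 26 members fell, beside 4.07% of the genes so tested. With a trend on length, GC content and depth removed, 37 fell, beside 2.41% of the 14738 genes with a known length. These 37 were 10.3% of all 359 members, of which 348 had a length and could be tested. With a trend on mean count alone removed, 32 fell (8.91%), beside 3.64%. When the statistic was referred to a t distribution with 6 degrees of freedom, 0 members and 0 of all genes were called, with 75 members (20.9%) lower and 0 higher at an unadjusted p under 0.05, beside 6.48% of all genes lower and 4.65% higher. When its null width was taken from the data, 0 members and 0.0202% of all genes were called lower, with 50 members (13.9%) lower and 0 higher at an unadjusted p under 0.05, beside 4.13% of all genes lower and 2.51% higher.

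The shift was not limited to the called members. The median log2 fold change of the 359 members was -0.46 (quartiles -0.92 and -0.11), a 1.38-fold lower value in CreER/flox, beside 0.0007 over all genes. Of the members 298 (83%) lay below 0, against 49.9% of all genes. More than 2-fold lower values were found in 72 members, beside 551 of all 14853 genes, and in 0 members a value was more than 2-fold higher. The lowest member stood at -2.22 and the highest at 0.70, while all genes spanned -2.99 to 5.72.

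**Figure D1:**
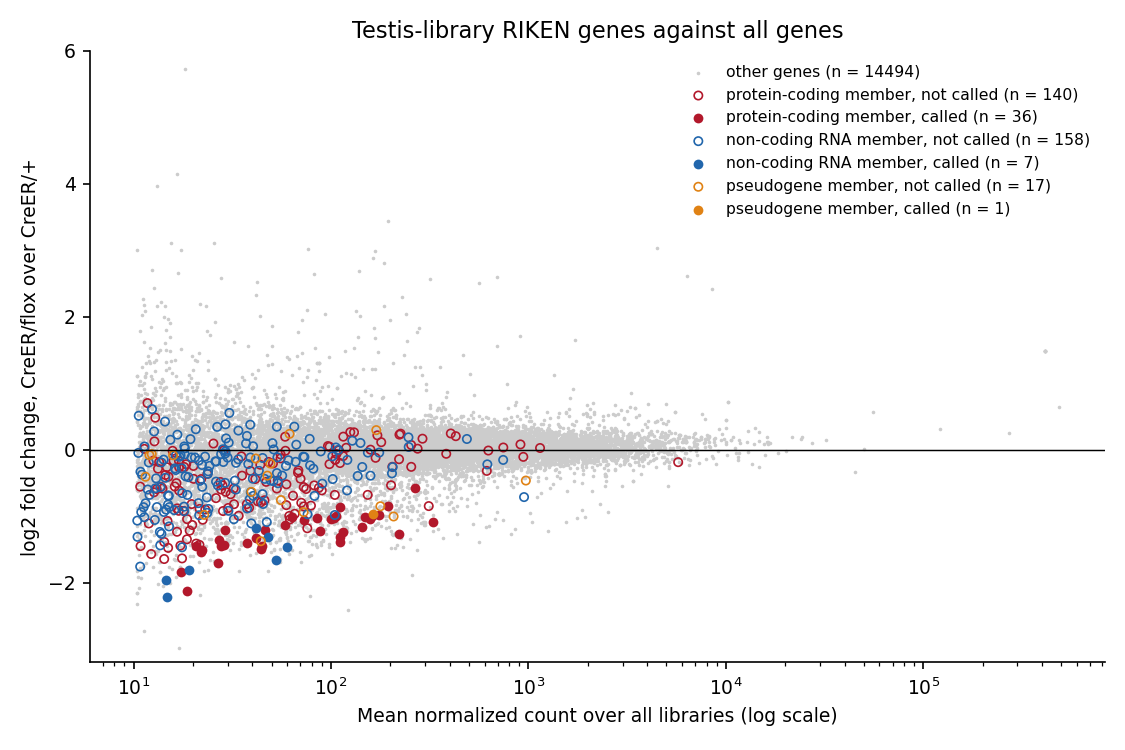
Log2 fold change (CreER/flox over CreER/+) against the mean normalized count over all libraries (log scale), with each point a gene: members by RNA class, filled where called, and all other genes in grey. The 44 called members lie below 0, between -2.22 and -0.58, and most members below a mean count of 300 lie in the lower part of the cloud.

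RIKEN genes named for other libraries were the nearest group by naming. Of these 410 genes, 10 (2.44%) were called lower and 8 higher in the authors' deposited table. Their median log2 fold change was -0.0025, and 206 of 410 lay below 0. Their mean counts, with a median of 54.5, were somewhat above those of the testis-library genes, with a median of 37.1. The difference between these groups was not tested, since the members were chosen with results of the same comparison known.

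**Figure D2:**
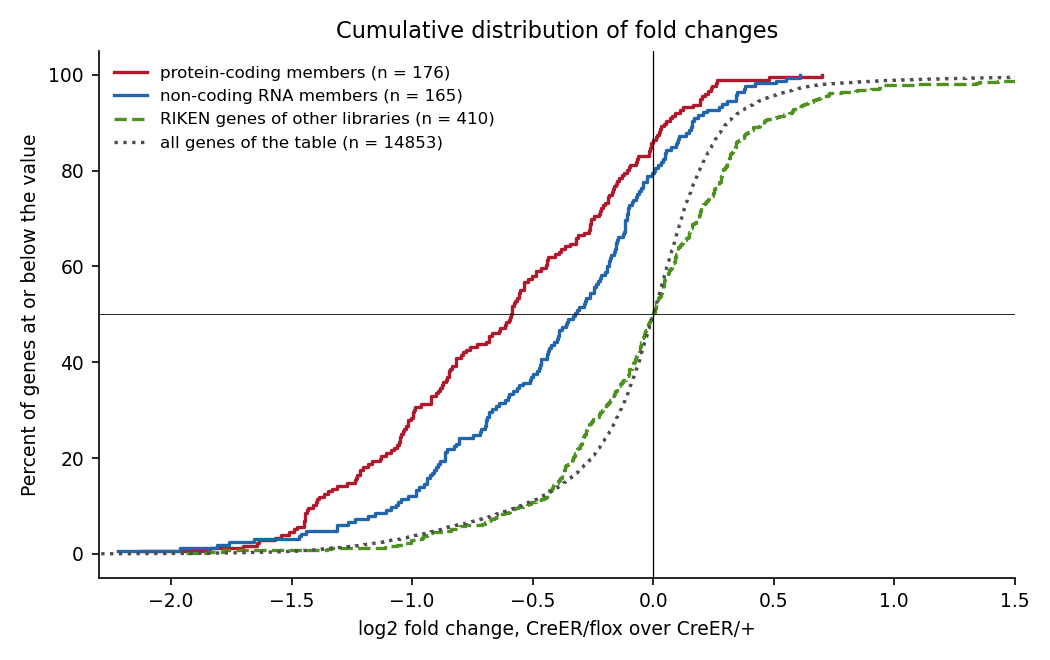
Cumulative percent of genes (vertical axis) at or below each log2 fold change, CreER/flox over CreER/+ (horizontal axis), for protein-coding members, non-coding members, RIKEN genes of other libraries and all genes. The curve of the coding members crosses 50% at -0.59 and that of the non-coding members at -0.33, while the curves of the other-library RIKEN genes and of all genes cross it near 0.

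Protein-coding members carried most of the calls. Of 176 coding members, 36 (20.5%) fell, beside 3.53% of all protein-coding genes in the authors' deposited table. They had a median of -0.59, and 151 of 176 lay below 0. Of 165 non-coding members, 7 (4.24%) fell, beside 1.74% of all 689 non-coding RNAs. Non-coding members had a median of -0.33, with 131 of 165 below 0, against a median of -0.12 over all non-coding RNAs. Among the 18 pseudogene members, 1 fell and 16 lay below 0, with a median of -0.44. Pseudogenes as a whole lay the other way in the authors' deposited table, with a median of 0.24.

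The sign was alike across the library prefixes. The largest library gave 161 members, with a median log2 fold change of -0.56, while the smallest gave 5. Of the 161, 25 (15.5%) fell, beside 3.42% of all genes. Over the 6 prefixes the median log2 fold change ranged from -0.70 to -0.28, and each prefix held at least 1 member that fell. All 6 medians were thus below 0, and none of the prefixes held a member called higher.

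The share of members called varied with counting depth. Among the 108 members with a mean count over 10 up to 20, 5 (4.63%) fell, beside 1% of all genes of that depth, although their median log2 fold change was the lowest, -0.58. In the class over 20 up to 50, 15 of 112 members (13.4%) fell, beside 3.33% of all genes. Over 50 up to 100, 7 of 60 (11.7%) fell, beside 5.95%. The share was highest over 100 up to 300, where 16 of 62 members (25.8%) fell, beside 4.82% of all genes. Above 300, 1 of 17 members (5.88%) fell, beside 2.37%. The members' medians in the 3 deeper classes were -0.47, -0.23 and -0.11 with rising depth, so the values of abundant members lay closer to 0. Genes in general also had lower fold changes at low depth, with medians of -0.19 and -0.14 in the 2 shallowest classes.

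**Figure D3:**
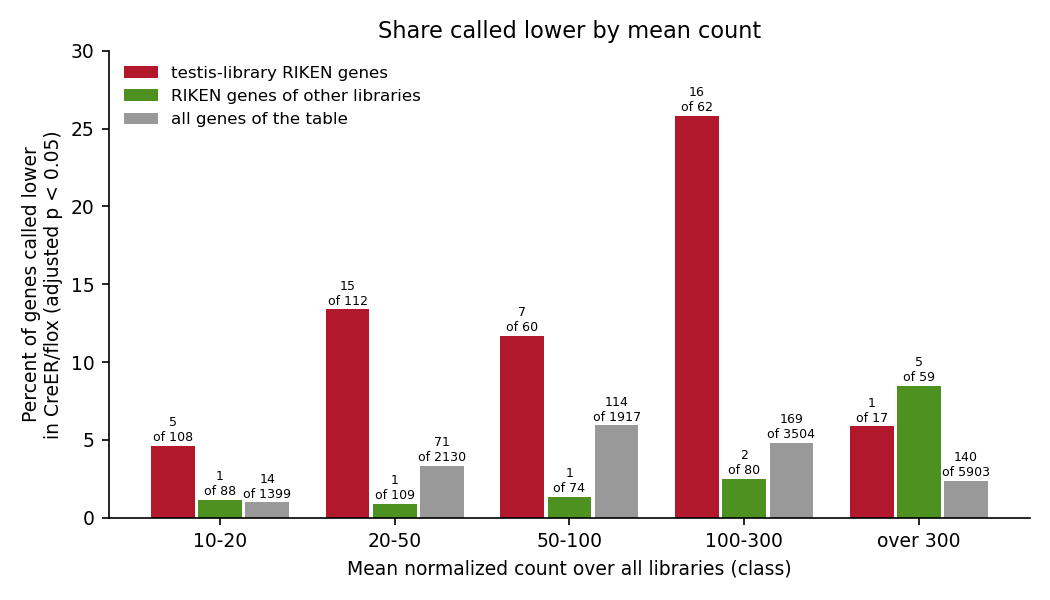
Percent of genes called lower in CreER/flox (vertical axis) by class of mean normalized count (horizontal axis), for testis-library RIKEN genes, RIKEN genes of other libraries and all genes, with the counts above each bar. In the 4 classes up to 300 the testis-library bar is the tallest, while above 300 it rests on 1 of 17 genes and the bar of the other RIKEN genes (5 of 59) is taller.

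Of the 44 members that fell, the median log2 fold change was -1.25, or 2.38-fold lower in CreER/flox, and the range was -2.22 to -0.58. The smallest adjusted p belonged to 4930467E23Rik (chromosome 8, 19704311 to 19753603), at -1.27 (SE 0.21, adjusted p 6.42e-06, mean count 220), per the authors' deposited table. It is a coding gene of unknown role whose transcript of 2514 bases aligned over its whole length to Gm15319 and Gm21119. In all, 7 other genes shared at least 100 aligned bases with it, so its reads could be divided among copies. Gm15319 and Gm21119 were in the authors' deposited table, at -1.33 (SE 0.25) and -1.27 (SE 0.29), and both were called lower. Across the called members, 3 shared at least 50% of their transcript with another gene at 98% identity or more. The other pair are 4933406F09Rik, a non-coding RNA near the start of chromosome 14, and 1700042G07Rik, a coding gene on chromosome 4.

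The next genes by adjusted p had no such copy. Ppp1r14bl, under its clone name 4933415F23Rik (chromosome 1, 23100473 to 23102253), is named as a relative of a protein phosphatase 1 inhibitor and stood at -1.39 (SE 0.27, adjusted p 0.000111, mean count 111), per the authors' deposited table. Its window was listed with 11 CG. For 4930571K23Rik, whose promoter stands first above, the authors' deposited table gave -0.99 (SE 0.21, adjusted p 0.000884, mean count 175). For 1700013G24Rik on chromosome 4 it was -1.31 (SE 0.29, adjusted p 0.00119, mean count 111), per the authors' deposited table. These 3 genes were thus 1.99- to 2.63-fold lower in CreER/flox.

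Iqca1l, under the clone name 4931409K22Rik, is named for an IQ motif and an AAA domain, and stood at -1.17 (SE 0.26, adjusted p 0.0015), per the authors' deposited table. On chromosome 8, 1700029H14Rik had -0.99 (SE 0.23, adjusted p 0.00255), and on chromosome 6, 4921507P07Rik had -1.02 (SE 0.24, adjusted p 0.00288), per the authors' deposited table. A pair of called members lie close together on chromosome 2, 4933409G03Rik (68582413 to 68616463) and 4932414N04Rik (68656791 to 68748532), on the same strand. The first stood at -1.23 (SE 0.30, adjusted p 0.00415) and the second at -1.004 (SE 0.25, adjusted p 0.00464), per the authors' deposited table. Stk39, a kinase gene and the nearest other measured gene to 4933409G03Rik, also fell (-0.54, SE 0.11), per the authors' deposited table.

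Renamed members show a few known roles. Llcfc1 (1700034O15Rik), a sperm protein needed in mouse for the fusion of sperm and egg, fell, at -1.22 (SE 0.40, adjusted p 0.0469), per the authors' deposited table. Ccdc192 (1700011I03Rik), Ms4a20 (1700017D01Rik), Fam166c (1700001C02Rik) and Potegl (4931423N10Rik) were also called, with log2 fold changes of -1.33, -1.02, -1.51 and -1.54 in the authors' deposited table. With a trend on mean count removed, Llcfc1, Ms4a20, Fam166c and Potegl lost their calls (adjusted p 0.0915, 0.0556, 0.0849 and 0.0882), and all of these but Ms4a20 also did so with the trend on length, GC content and depth removed. Of all 38 renamed members 7 (18.4%) fell, beside 3.42% of all genes, 33 lay below 0, and the median was -0.63. Among those not called, Spem2 (4933402P03Rik), a spermatid protein, stood at -0.68 (SE 0.25, adjusted p 0.0802), H2bl1 (1700024P04Rik), a histone H2B-like gene, at -1.35 (SE 0.56), and Tex55 (4930435E12Rik) at -1.07 (SE 0.59), per the authors' deposited table. Renamed members with values near 0 in the authors' deposited table, picked after the values were seen, include Dpp3 (4930533O14Rik), a peptidase, at 0.03 (SE 0.09) and Mtres1 (1700021F05Rik), a mitochondrial factor, at 0.01 (SE 0.13).

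The 7 non-coding members that fell included the largest fold. In the authors' deposited table, 4930442L01Rik on chromosome 3 stood at -2.22 (SE 0.68, adjusted p 0.0287) at a mean count of only 14.8. Among those with a mean count of at least 50, 4930444F02Rik on chromosome 10 was lowest, at -1.65 (SE 0.39, adjusted p 0.00256). Next came 1700027A15Rik at -1.46 (SE 0.42, adjusted p 0.0194, SE 1.51 times that of genes of like count), per the authors' deposited table. It lies beside Tnp1, the gene of transition protein 1 of spermatid chromatin, which is 137 bases away and stood at -1.01 (SE 0.38, adjusted p 0.0900, not called), per the authors' deposited table. The other non-coding calls were 1700031M16Rik (-1.18), 4933406F09Rik (-1.31), 4930509G22Rik (-1.81) and 4921525O09Rik (-1.96). With the trend on mean count removed, 4930442L01Rik, 4930509G22Rik and 1700031M16Rik lost their calls (adjusted p 0.0514, 0.0538 and 0.0531). With the trend on length, GC content and depth removed, 4930442L01Rik, 4930509G22Rik and 4921525O09Rik did (adjusted p 0.0678, 0.0656 and 0.0678).

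The sole pseudogene call was 1700123L14Rik on chromosome 6, at -0.97 (SE 0.26, adjusted p 0.0115, mean count 162), per the authors' deposited table. The remaining coding calls ranged from 1700030J22Rik, at -0.58 (SE 0.16, adjusted p 0.0163, mean count 268), to 4921524L21Rik, at -2.12 (SE 0.64, adjusted p 0.0256, mean count 18.7), per the authors' deposited table. Members whose promoters carry a partial X-box were among them. In the authors' deposited table, 1700034J05Rik stood at -1.03 (SE 0.26, adjusted p 0.00687) and 1700001L19Rik at -1.44 (SE 0.46, adjusted p 0.0362). The call of 1700001L19Rik was lost with either trend removed (adjusted p 0.0736 for mean count alone and 0.0820 for length, GC content and depth). Although 1700010I14Rik was the deepest called member, at a mean count of 330 and a log2 fold change of -1.09, its SE of 0.35 was 2.76 times that of genes of like count (adjusted p 0.0433), per the authors' deposited table. SEs over 1.5 times those of like genes were seen in 6 of the 44 called members and in 4.74% of all members, beside 3.49% of all genes.

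**Figure D4:**
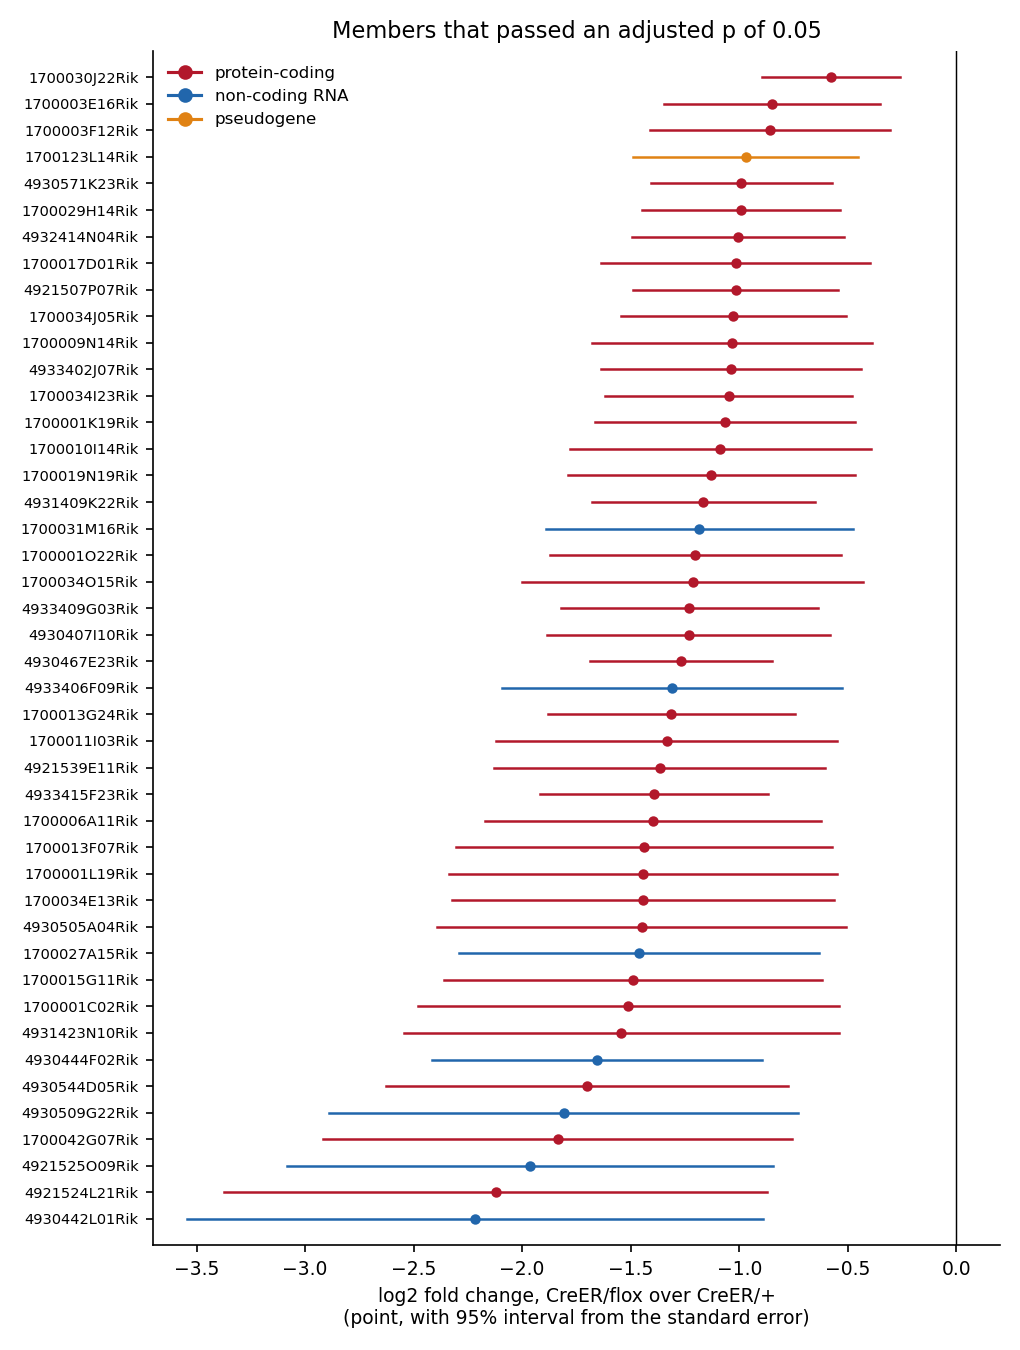
Log2 fold change, CreER/flox over CreER/+ (horizontal axis), of each of the 44 called members, ordered by size and coloured by RNA class, where the point is the deposited estimate and the line its 95% interval from the SE. No interval reaches 0, and the intervals widen towards the largest falls, which belong to members of low count.

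Members just short of the threshold lay on the same side. In the authors' deposited table, 1700093K21Rik stood at -0.96 (SE 0.32, adjusted p 0.0527), 1700022A21Rik at -1.38 (SE 0.47, adjusted p 0.0556) and 1700074P13Rik at -0.997 (SE 0.34, adjusted p 0.0559). With adjusted p of 0.0596 each, 4930544G11Rik and 4930542D17Rik had -0.68 and -0.97 in the authors' deposited table. For 250 of the members the 95% interval included 0, so no difference was detectable for them at these SEs.

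Several members of large mean count or known role were not called. At a mean count of 5734, 4932438A13Rik, the mouse counterpart of the very large human lipid-transfer protein gene KIAA1109, stood at -0.19 (SE 0.08, adjusted p 0.122), per the authors' deposited table. Garre1 (4931406P16Rik) stood at -0.11 (SE 0.08, adjusted p 0.475), and 4933434E20Rik, at a mean count of 627, at -0.013 (SE 0.10, adjusted p 0.967), per the authors' deposited table. Known in mouse as Six6os1, a central element of the meiotic synaptonemal complex, 4930447C04Rik stood at 0.22 (SE 0.17, adjusted p 0.532), per the authors' deposited table. Known in mouse as SPO16, a meiotic crossover factor, 1700028K03Rik stood at -0.15 (SE 0.20, adjusted p 0.754), per the authors' deposited table. None of these 5 genes was called, and only for 4932438A13Rik did the 95% interval (-0.34 to -0.04) exclude 0.

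Some other members named for role or depth had wider errors. In the authors' deposited table, 1700102P08Rik, needed for spermatogenesis in mouse, stood at -0.58 (SE 0.29, adjusted p 0.231). The non-coding 4930470H14Rik, at a mean count of 950, stood at -0.71 with an SE of 0.30 that was 3.25 times that of like genes (adjusted p 0.136). The pseudogene 4933409K07Rik stood at -0.46 (SE 0.26, adjusted p 0.318), also with an SE 2.91 times that of like genes, in the authors' deposited table. The values of 4933427D14Rik, 4931406C07Rik, 1700066M21Rik and 4931414P19Rik were -0.26, 0.11, 0.23 and 0.19, none of them called. The highest members with a mean count of at least 50 were 4930558J18Rik (0.35, SE 0.23), 4930506C21Rik (0.34, SE 0.27) and 1700018B24Rik (0.29, SE 0.19), per the authors' deposited table. The single member higher at an unadjusted p under 0.05 was the X-linked 4930550L24Rik, at 0.24 (SE 0.12, adjusted p 0.212), per the authors' deposited table, named here after its value was seen.

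Members that fell lay on every autosome except chromosome 9. On chromosome 2, 5 of 21 members fell, beside 37 of all 1174 genes there, and on chromosome 6, 5 of 17, beside 29 of 680. Chromosomes 3, 4 and 8 had 4 each, of 24, 18 and 21 members, beside 26 of 681, 38 of 971 and 26 of 792 genes. Chromosome 9 held 22 members and the X chromosome 11, with 0 called on either at an adjusted p under 0.05, beside 21 of all 824 genes lower on chromosome 9 and 2 of 614 on the X. The 11 X-linked members had a median log2 fold change of -0.17, and the 22 members on chromosome 9 a median of -0.40.

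The nearest neighbours of the called members had a median closer to 0, though some were called lower as well. For each of the 44 called members, the nearest measured gene that did not overlap it and was no member lay at a median distance of 22941.5 bases. These 44 neighbours had a median log2 fold change of -0.11, and 27 lay below 0. Of the 44, 7 were called lower and 1 higher in the authors' deposited table, beside 3.42% and 1.94% of all genes. Examples are Drc1, a ciliary dynein regulator near Fam166c, at -0.88 (SE 0.28), and Smco2 near 1700034J05Rik, at -1.13 (SE 0.33), per the authors' deposited table. Gcsh, a glycine cleavage gene beside 1700030J22Rik, was the one called higher, at 0.38 (SE 0.12), per the authors' deposited table. Over all 359 members the neighbours' median was -0.01, with 11 lower and 8 higher calls, where a neighbour can be counted for more than 1 member.

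No source used here states the strand setting of the counting, so reads of a member and of an overlapping gene may not be told apart. RefSeq places another gene over 191 members, of which 18 (9.42%) fell. Over the other 168 it places no gene, and 26 (15.5%) of these fell, beside 3.42% of all genes. The median log2 fold change was -0.41 for the overlapped members and -0.57 for those free of overlap. In 140 pairs of a member with a measured overlapping gene that was no member, 128 lay on opposite strands. The members' median in these pairs was -0.27 and the partners' -0.10. Of the called members, 7 had such a partner, and 0 of those 7 partners were called. For example, 1700034J05Rik (-1.03) lies within Ppfibp1, a liprin gene that stood at 0.07 (SE 0.07) at a mean count of 1179 in the authors' deposited table.

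Markers of spermatids mostly had lower values in the same comparison. All 47 genes of a spermatid list were in the authors' deposited table. Of these, 14 (29.8%) were called lower and 0 higher, 46 lay below 0, and the median log2 fold change was -0.90 (range -1.83 to 0.12). Among them were Odf1, of the outer dense fibres (-1.14, SE 0.22), Spem1 (-1.47, SE 0.33), and Akap3 and Akap4, of the fibrous sheath (-1.33, SE 0.33, and -1.20, SE 0.40). The protamine genes Prm1 and Prm2 stood at -1.23 (SE 0.45) and -1.09 (SE 0.43) and were not called. The median SE of the list was 1.46 times that of genes of like count. For all RIKEN members it was 1.06 times, and for the called members 1.23 times. Only Spem2 belongs to both lists. Levels of each genotype were not used here, and the part of spermatid transcripts in the members' values was not tested.

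The other cell type lists had medians closer to 0 or few measured genes. Of 40 meiotic spermatocyte genes, 2 fell, Piwil1 (-0.73, SE 0.14) and Sycp2 (-0.53, SE 0.15), and the median was -0.06 in the authors' deposited table. Of the 40, 25 lay below 0 and 15 above, with a range of -0.73 to 0.43. The list holds genes of large mean count in these samples, such as Piwil2 (3814) and Mael (3550). Its median may therefore not stand for spermatocyte transcripts alone. Of 31 genes of undifferentiated spermatogonia and germ cells, 1 rose, Dazl (0.23, SE 0.06), 0 fell, and the median was -0.02. All 31 were in the table, at mean counts from 14.9 (Utf1) to 5143. Kit, absent from the surface of the sorted cells, was in it as well, at -0.29 (SE 0.21). It belongs to a list of 4 differentiating genes, of which 0 were called and whose median was -0.03. Of 18 Sertoli genes 9 were in the authors' deposited table, where Trf rose (0.62, SE 0.15). Lists for Leydig cells (1 of 6 in the table), leukocytes (1 of 7), endothelial cells (4 of 5) and red cells (4 of 5) had no call. The red cell genes had a median of 0.90, with a median SE 3.17 times that of genes of like count. The myoid list (3 of 6), with a median of -1.05, had 1 call, Actg2, at -1.17 (SE 0.37), per the authors' deposited table.

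Promoters of the members were poor in CG dinucleotides. A RefSeq window was matched for 277 of 359 members, 30 of them called. The median count of CG in 300 bases was 7 for the members, 3 for the called members, 20 over the 11639 genes of the table with a window, and 19 for the other-library RIKEN genes. The G and C content had a median of 52% in the members and 60.3% over all genes. Members of low CG content had the lower fold changes, with the line drawn at the median of all genes after the values were seen. Under 20 CG, 28 of 218 members (12.8%) fell and 190 (87.2%) lay below 0, and their median was -0.56. At 20 or more, 2 of 59 (3.39%) fell and 35 (59.3%) lay below 0, with a median of -0.10.

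Over all genes with a window, 4.51% under 20 CG and 2.37% at or over it were called lower, with medians of -0.02 and 0.01. Within the coding members, 25 of 123 (20.3%) fell under 20 CG and 2 of 24 (8.33%) at or over it, with medians of -0.63 and -0.03. Among the other-library RIKEN genes the shares were 2.89% and 2.99%. CG content moved with depth, since the median mean count of the members was 30.3 under 20 CG and 78.0 at or over it. The part of depth in this contrast was not tested.

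**Figure D5:**
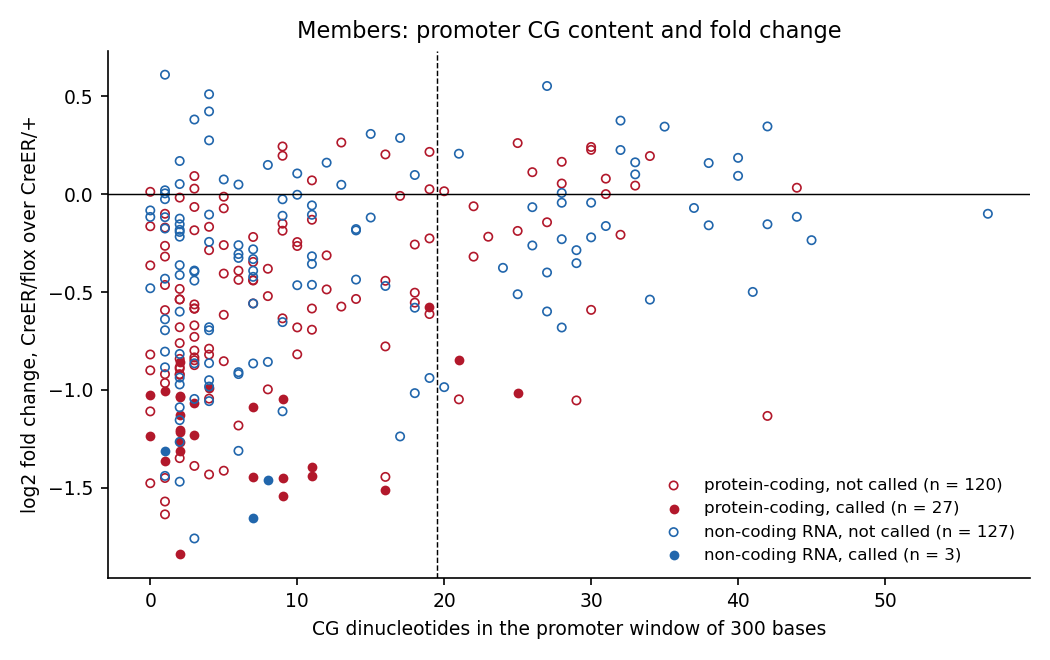
Log2 fold change, CreER/flox over CreER/+ (vertical axis), of the 277 members with a promoter window against the number of CG dinucleotides in its 300 bases (horizontal axis), coloured by RNA class and filled where called. The dashed line separates the 218 members under 20 CG from the 59 at or over it, and 2 of the filled points lie to its right.

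Short motifs were counted on both strands of the same windows, as letters only. The partial X-box GTTGCC was found in 19.1% of members (95% exact Clopper-Pearson interval 14.7% to 24.3%), in 6 of 30 called members (20%), and in 13.5% of all windows. In the coding members its share was 23.1%, against 13.5% of all coding genes. GC boxes (CCGCCC) were found in 31.8% of members and 16.7% of called members, against 61.2% of all windows. The TATA letters TATAAA were in 9.03% of members, 5 of 30 called members (16.7%) and 7.25% of all windows. In these 5 called members the first letter lay at positions from -221 to -94 relative to the start. In windows that began 100 bases before the start, the order of members and all windows turned (1.08% and 3.06%). The cyclic AMP response element TGACGTCA, bound by the spermatid activator CREM, was in 1.81% of members, 0 of 30 called members and 3.21% of all windows, and the variant TGACGCAA in 0.361% and 0.919%. The MYB letters AACTGTC were in 5.42% of members and 2.8% of all windows, and AACCGTC in 0.361% and 1.25%, with 0 of the called members holding either. A match is a run of letters in this window and no measured site, and matches of different motifs were counted independently, also where they overlapped.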

How the data were processed

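Total RNA of sorted spermatogonia from 4 CreER/flox and 4 CreER/+ samples was made into libraries with a stranded low-input kit, per the labels' protocols. The genome builds were mm10 and GRCm38, and the tools DESeq2, Bowtie, Bowtie2 2.0.0-6, TopHat2 2.0.4 and Trim Galore, per the submitters' processing notes. No source used here gives the read counter, its strand setting, its annotation or the handling of multiply mapped reads. The single file used is the authors' comparison of the groups, keyed by Entrez gene ID. Its mean count is a signal the authors deposited as a normalized count averaged over all libraries. The deposited log2 fold changes and SEs were fitted by the authors. The deposited score is the Wald statistic, which equals fold change over SE within 2.58e-07. The deposited p-values matched a two-sided normal distribution of that score within 0.426%, and a Benjamini-Hochberg adjustment of them over all rows came within 0.424% of the adjusted p-values. Total counts per library were not used here. The SEs hold both counting depth and the spread between libraries, and these parts were not told apart.

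No model was fitted across libraries. Members were matched by symbol or Entrez ID, and member rows with identical values were counted once, so by rule no member shares its values with another. Values of 3 members were identical to those of a row that is no member, and 1 symbol, 4933434E20Rik, was carried by 2 members with different IDs. Coordinates, symbols and promoter windows are RefSeq's for GRCm38.p6. Transcript lengths are from GENCODE M21, found for 96.9% of members. Strands are from the RefSeq promoter windows, or from GENCODE M21 where there was no window, and were found for 357 members. Near-identical transcripts were sought at 98% identity over at least 100 bases. The SE of a gene was compared with the median of the 100 rows on each side by mean count. The members and lists were chosen with earlier results of these data known, so no list test was run and counts stand beside those of all genes. Named genes are the 30 called members of smallest adjusted p, the 5 uncalled ones of smallest p, the 5 of largest mean count, the 3 highest and 3 lowest with a mean count of at least 50, and 10 members of known or broad role. Members outside that rule, the other called ones and the renamed ones among them, were named after their values were seen. The calling of genes and the removal of a trend with mean count were tested on simulated fold changes with normal noise. Such noise cannot tell which reference distribution suits these data, and the other steps were not simulated. Python 3.11.15 was used with pandas 2.3.3, numpy 2.4.6, scipy 1.17.1, statsmodels 0.14.6 and matplotlib 3.10.9. Alternatives were other thresholds, other reference distributions, other adjustment sets, removal of fitted trends and subsets of the members.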

Additional observations from a re-analysis of the deposited data

How the results depend on the processing

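No member was called higher under any setting tried, and the median log2 fold change of the members stayed below 0 in each, between -0.59 and -0.26. The number called lower was 44, and it was 11 at an adjusted p under 0.01, 26 with adjustment over genes of mean count at least 50 (20 of the 44 were then not tested and 2 were gained), 24 among the 139 members of mean count at least 50, and 26 among the 168 that no RefSeq gene overlaps. With a t distribution of 6 degrees of freedom 0 members were called. With the normal distribution widened to the SD of the middle 50% of the statistics (1.45), 0 members and 3 of all genes were called lower. Every call therefore rests on the authors' standard normal distribution of the statistic. Removing a fitted trend on length, GC content and depth left 37 lower calls (8 lost, 1 gained) and a median of -0.39, and removing a trend with mean count alone left 32 (13 lost, 1 gained) and a median of -0.35. The 8 lost with the first were 1700001C02Rik, 1700001L19Rik, 1700034O15Rik, 4921525O09Rik, 4930442L01Rik, 4930505A04Rik, 4930509G22Rik and 4931423N10Rik, and 1700019M22Rik was gained. The second also lost these, 4921525O09Rik excepted, with 1700003F12Rik, 1700009N14Rik, 1700013F07Rik, 1700017D01Rik, 1700031M16Rik and 1700034E13Rik, and gained 4932438A13Rik. The causes were not tested. The last trend, the coding members alone (36), the members without shared values or changed symbols (37) and those without near-identical copies (41) were added after seeing the data. With windows from 100 bases before the start, GTTGCC was in 12.6% of members and 7.66% of all windows, AACCGTC in 0% and 0.679%, CCGCCC in 22.7% and 51.6%, and TATAAA in 1.08% and 3.06%. Fewer bases were searched, and for TATAAA alone of these 4 the order of members and all windows turned. No paired analysis was possible because the table holds no values per library, and for the same reason no library could be left out.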
